A study of Mus musculus with 8 samples.

Results

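A set of 10 genes of methionine salvage, the S-adenosylmethionine cycle and polyamine synthesis was followed in mouse 3T3-L1 preadipocytes with lowered Fto. They are Mtap, Apip, Enoph1 and Adi1 (salvage), Mat2a, Mat2b and Ahcy (S-adenosylmethionine cycle), and Amd1, Srm and Sms (polyamine synthesis). The 10 genes were picked by symbol from 23699 listed entries, with the contrast described here already known, so their values are a description of that contrast and no independent test of it. 3T3-L1 is a clonal mouse fibroblast line that can be turned into fat cells, and Fto encodes a dioxygenase that removes methyl groups from nucleic acids. The control group received a pool of 3 non-targeting Stealth siRNAs and the other group a pool of 3 Stealth siRNAs against Fto, each at 40 nM for 24 hours by lipid transfection before the cells were confluent. All cells were taken as preadipocytes at day 2 past confluence, and there were 4 libraries of total RNA per group. Nothing in the labels tells whether the 4 came from independent dishes, and the p-values below therefore speak only of the scatter among these libraries, which can be technical. In such bulk RNA, fewer cells of a type and less RNA per cell cannot be told apart.

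S-adenosylmethionine, made from methionine and ATP, is the methyl donor of most cellular methylation, including that of RNA. The methyl transfer leaves S-adenosylhomocysteine, which is broken down to homocysteine and adenosine. A smaller share of S-adenosylmethionine is decarboxylated and gives up its aminopropyl group to build spermidine and spermine, and each such step releases methylthioadenosine. The salvage pathway returns the sulfur and methyl group of methylthioadenosine to methionine through Mtap, Mri1, Apip, Enoph1, Adi1 and a final transamination.

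The libraries held 18.9 to 24.4 M fragments as worked out from the widths of the deposited intervals, and FPKM, the fragments of a gene divided by its transcript's length and by the library's size, is a level per length. Fto itself, the check of the labels, was 54.6, 55.4, 56.2 and 55.2 FPKM in the controls and 13.8, 10.7, 12.3 and 11.6 FPKM with Fto siRNA (exact permutation test, both sides, p = 0.0286, the smallest that 70 arrangements allow). It was thus 78.1% below the control mean, so the cells kept part of their Fto mRNA. The summed level of 8 preadipocyte and fibroblast markers was 5220 to 5710 FPKM in the controls and 5700 to 6710 FPKM with Fto siRNA, with 4 of 7 tested markers called higher and 2 lower. The 6 markers of mature fat cells summed to 50.8 to 81.8 and 53.1 to 65.3 FPKM, most of it Fabp4, and control replicate 4 had the highest Adipoq, 9.19 FPKM against 1.22 to 3.54 in the other libraries. Control replicate 3 had the highest median-ratio scaling factor, 1.023, and values without control replicates 3 and 4 are given where they end a call. Markers of immune, endothelial, epithelial and muscle cells summed to at most 1.47 FPKM per list and library, with Emr1, Cd3e, Epcam and Myod1 listed at 0 throughout. The part of these marker levels in the results below was not tested.

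In the controls the members spanned a 13.8-fold range of levels. Mat2a, the catalytic subunit that makes S-adenosylmethionine, stood highest at 183 ± 3.55 FPKM (SD, n = 4), above 96.8% of the tested genes. Its regulatory subunit Mat2b followed at 63.8 ± 2.05 FPKM. Mtap at 57.1 ± 1.12 and Srm at 53.8 ± 4.14 FPKM overlapped each other and did not differ beyond their spread. Apip at 33.6 ± 0.616 and Adi1 at 32.1 ± 1.46 FPKM also overlapped. The summed Amd1 and Amd2 entries (27.7 ± 1.12 FPKM) and Ahcy (25.0 ± 0.770 FPKM) came next, by a narrow gap from each other. Enoph1 at 13.7 ± 0.919 and Sms at 13.2 ± 1.04 FPKM were lowest and overlapped. With Fto siRNA, Adi1 moved from sixth place to eighth, next to Enoph1, and the Amd1 and Amd2 sum and Ahcy each stood a place higher, as the plot of levels per length shows. Srm and Mtap, which overlapped in the controls, were in the opposite order there, at 58.9 and 56.6 FPKM.

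**Figure D1:**
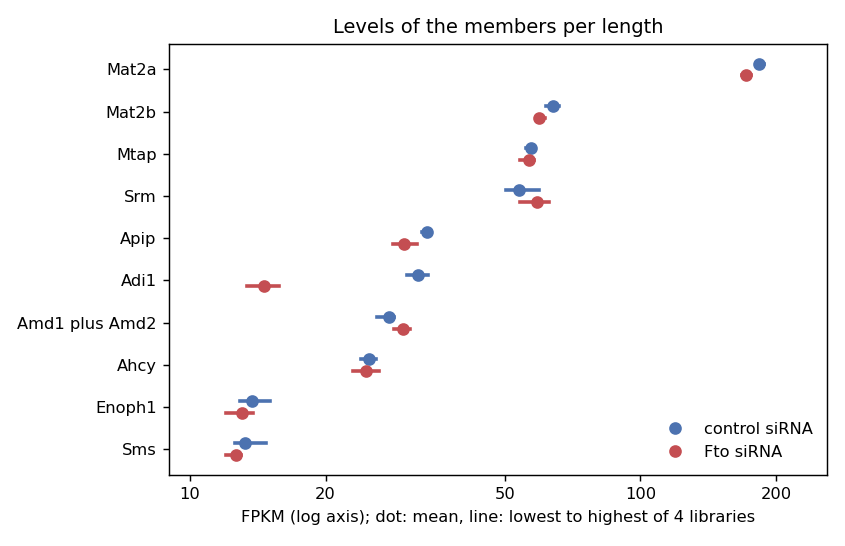
Mean level in FPKM (log axis) of each member in control siRNA (blue) and Fto siRNA (red) libraries, with a line from the lowest to the highest of 4 libraries. Adi1 lies near Apip in the controls (32.1 and 33.6 FPKM) and near Enoph1 with Fto siRNA (14.6 and 13.1 FPKM).

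Adi1 was the member with the largest difference. It encodes acireductone dioxygenase, the enzyme that turns acireductone into the keto acid from which methionine is remade. Its locus is mm9 chr12:29360072-29367039, and no other listed entry overlaps it. The controls held 32.4, 30.3, 32.1 and 33.8 FPKM, and the Fto siRNA libraries held 15.8, 13.4, 15.1 and 14.1 FPKM. Every Fto siRNA library was below every control, and the gap between the groups was wider than the range within either. The mean fell from 32.1 ± 1.46 to 14.6 ± 1.05 FPKM (SD, n = 4), a drop of 54.6% against the controls. On the scale of log2(FPKM + 0.5) the log2 fold change was -1.11 with SE 0.0542 and a 95% interval of -1.23 to -0.99 (limma adjusted p = 2.5e-06, over 11398 tested genes). This was the 18th lowest log2 fold change of all tested genes, 25 of which fell by at least 1 on the log2 scale. The value rested on 410 to 1140 fragments per library, worked out from the interval widths as if these held counting error only.

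Relative to its pathway neighbours in the same library, Adi1 was lower. Mtap and Enoph1 changed little, so these ratios restate the fall of Adi1, and they were not tested. The ratio of Adi1 to Mtap was 0.563 ± 0.0236 in the controls and 0.258 ± 0.0247 with Fto siRNA (SD, n = 4). The ratio of Adi1 to Enoph1, the enzyme that makes its substrate, was 2.15, 2.34, 2.37 and 2.54 in the controls and 1.17, 1.11, 1.10 and 1.09 with Fto siRNA. The groups did not overlap in either ratio, and such ratios do not depend on a scaling factor per library.

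The annotated 3′ UTR of Adi1 holds the word GACCTTAA, shown because its parts GACCTTA and ACCTTAA were the words picked in earlier results of these data as those whose carriers were lowest with Fto siRNA. The word starts at base 202 of a 3′ UTR of 1090 bases. The 30 bases shown span GRCm38 chr12:28681276-28681305 on the plus strand, with the word in capitals in the transcript's 5′ to 3′ direction.
Adi1: tgtgaaaaagtGACCTTAAttttccctaac
Amd1: ctgtgcagtgcACCTTAAttagcgttaatg
The second line is the 30 bases around the single site in Amd1, GRCm38 chr10:40288400-40288429 on the minus strand, which holds ACCTTAA only. Searched on the transcript strand, GACCTTA or ACCTTAA (which overlap by 6 bases where joined) occurred in 2 of 10 members against 13.1% of 9813 tested genes with an annotated 3′ UTR, and the joined word in 2.15%. The other 8 members hold neither word. Since the words were chosen on this contrast, their presence in Adi1 is a description and supports nothing about its level.

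By the distance of their library profiles, the genes closest to Adi1 were Clca1, Thbs2, Marcks, Mlec and Becn1. Clca1 is here the symbol of the entry at mm9 chr3:144393280-144423703. In GRCm38 that symbol names another gene, so the entry was not matched to a 3′ UTR. The measure was the root mean square difference of the log2 deviations from the control mean over 8 libraries, among 9189 other genes with a mean of at least 5 FPKM, and it ran from 0.144 for Clca1 to 0.194 for Becn1. Thbs2, a matrix thrombospondin, held 279 ± 13.3 and 151 ± 9.01 FPKM (SD, n = 4) in control and Fto siRNA libraries, a log2 fold change of -0.89. Mlec, which encodes the ER lectin malectin, held 118 ± 4.85 and 65.1 ± 2.60 FPKM, a log2 fold change of -0.86. Becn1, a component of the lipid kinase complex of autophagy whose locus overlaps Cntd1, held 43.4 ± 2.56 and 23.7 ± 1.34 FPKM, also -0.86. Of the 4 that could be matched to a 3′ UTR, Thbs2, Marcks and Mlec hold GACCTTAA, which 2.15% of the 9813 genes hold, and Becn1 holds neither word. The genes were chosen for a difference like that of Adi1 and the words on the same contrast, so this count supports nothing.

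Of the other salvage enzymes, Apip fell slightly and Mtap and Enoph1 did not pass the test. Apip, the dehydratase that acts before Enoph1 (mm9 chr2:102913832-102932806), held 33.5, 32.7, 34.0 and 34.1 FPKM in the controls and 29.1, 29.9, 28.3 and 31.9 FPKM with Fto siRNA. All 4 Fto siRNA libraries were below all controls, with Fto siRNA replicate 4 closest to them. The fall was 11.2% of the control mean, -0.17 on the log2 scale (SE 0.0409, adjusted p = 0.017 by limma). Without control replicates 3 and 4 together, the call was lost (adjusted p = 0.0964 by limma). Its 3′ UTR is annotated at 80 bases, the shortest of the members. The level rested on 379 to 565 fragments per library, worked out as for Adi1.

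Mtap, the phosphorylase that opens the pathway by splitting methylthioadenosine (mm9 chr4:88783274-88826994), held 55.6, 56.8, 57.7 and 58.1 FPKM in the controls. With Fto siRNA it held 54.1, 57.6, 58.1 and 56.6 FPKM, within or next to the control range. Its log2 difference was -0.01 with a 95% interval of -0.09 to 0.06 (adjusted p = 0.846 by limma). Enoph1, the enolase-phosphatase that makes acireductone (mm9 chr5:100469013-100497784), held 15.0, 12.9, 13.6 and 13.3 FPKM in the controls and 13.5, 12.1, 13.8 and 13.0 FPKM with Fto siRNA. The groups overlapped, with a log2 fold change of -0.07 and an interval of -0.19 to 0.06 (adjusted p = 0.464 by limma). The intervals of Mtap and Enoph1 therefore leave out a fall of the size seen for Adi1.

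Across the members, 9 of 10 passed the filter of a mean of at least 1 FPKM, and limma called 2 of these 9 lower (Adi1 and Apip) and 0 higher at an adjusted p under 0.05. Over all tested genes 12.3% were called lower and 6.97% higher, 19.3% in either direction, and since the members were picked on this contrast nothing is read from their share. At an unadjusted p under 0.05 by limma, Mat2a and Mat2b were also lower. Such p-values were common, as Mat2a and Mat2b held ranks 2394 and 2494 by p among the 11398 tested genes. Nothing is read from that threshold. The median log2 fold change of the 9 was -0.07, against -0.02 for all tested genes. The groups did not overlap for 4 of the 9, all lower (Adi1, Apip, Mat2a and Mat2b), where 15.1% of tested genes were lower and 9.08% higher without overlap. The values by library are plotted for each member.

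**Figure D2:**
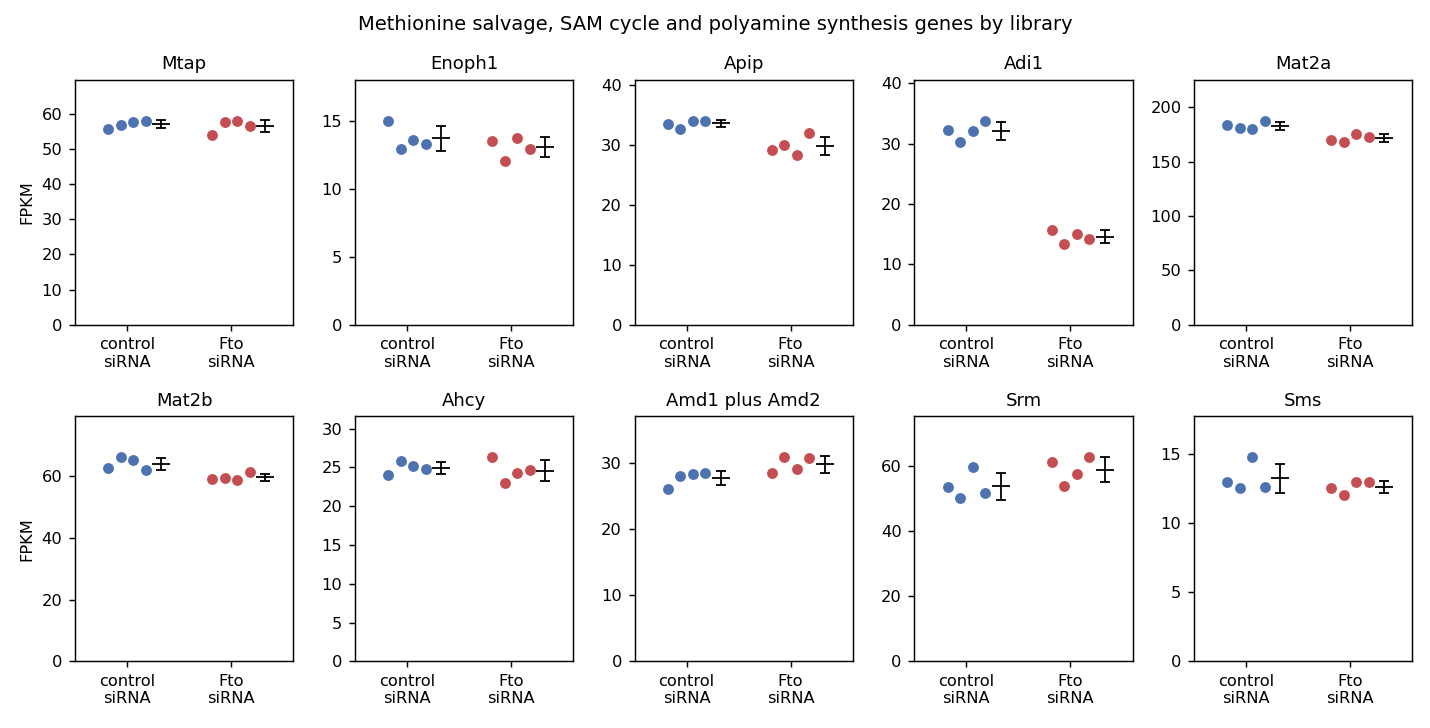
FPKM of each member in 4 control siRNA libraries (blue) and 4 Fto siRNA libraries (red), with the mean and SD in black and each axis starting at 0, and with the Amd1 and Amd2 entries summed. Adi1 separates by the widest margin, from 30.3 to 33.8 down to 13.4 to 15.8 FPKM, while Mtap, Enoph1, Ahcy, Srm and Sms overlap between groups.

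The subunits of methionine adenosyltransferase were slightly lower in every Fto siRNA library but did not pass the adjusted threshold. Mat2a (mm9 chr6:72382793-72389552, overlapping 4930414L22Rik) held 184, 181, 180 and 188 FPKM in the controls and 170, 168, 176 and 173 FPKM with Fto siRNA. The groups did not overlap, and the log2 fold change was -0.09 (SE 0.0313, adjusted p = 0.0598 by limma). It passed in 2 of 18 alternatives, without control replicate 3 (adjusted p = 0.0441 by limma) and with no filter on low genes (0.0498). In the others its limma adjusted p reached 0.157. Mat2b (mm9 chr11:40492816-40508705) held 62.4, 66.0, 65.1 and 61.8 FPKM in the controls and 58.8, 59.3, 58.5 and 61.3 FPKM with Fto siRNA. Its log2 difference was -0.10 (SE 0.0339, adjusted p = 0.0638 by limma). The ratio of Mat2a to Mat2b overlapped between groups, at 2.88 ± 0.146 and 2.89 ± 0.0839 (SD, n = 4).

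Mat2a is also a substrate of RNA adenine methylation, and its sites are shown for that reason. The m6A methyltransferase METTL16 is known to bind hairpins in the 3′ UTR of this mRNA at a short word with a UACAG core, and so ties the mRNA to the supply of S-adenosylmethionine. Searched as TACAGAGAA and TACAGAAAA on the transcript strand, the longest annotated Mat2a 3′ UTR (2178 bases) held 6 sites, shown 5′ to 3′ with the word in capitals.
Mat2a site 1: tggcgtaggtTACAGAGAAgccttcaagct
Mat2a site 2: ccttgtgataTACAGAGAAgtcacagggca
Mat2a site 3: ctggtgtagcTACAGAGAAaccagcttcct
Mat2a site 4: atggcgtaagTACAGAGAAgccatcacctc
Mat2a site 5: caaggtgtccTACAGAAAAaccttgggtta
Mat2a site 6: gctggtgtggTACAGAGAAgccagcttgtt
The stretches of 30 bases shown lie on the minus strand, from GRCm38 chr6:72434234-72434263 for site 1 to chr6:72432937-72432966 for site 6. Of 9813 tested genes with an annotated 3′ UTR, 4.48% held either word and 1, Mat2a, held 4 or more copies. The words were chosen as the METTL16 recognition word in Mat2a itself, so nothing is read from its place in this count. The files give no methylation at these sites. Mettl16 held 16.4, 15.7, 14.9 and 15.5 FPKM in the controls and 14.05, 13.6, 14.6 and 14.4 FPKM with Fto siRNA, -0.14 on the log2 scale (SE 0.0416, adjusted p = 0.042 by limma). That call was lost without any single library other than control replicate 3 (limma adjusted p 0.0539 to 0.107), with the other scalings (0.0838 and 0.0999), with no filter (0.0544) and with a replicate block (0.0932).

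Ahcy, the hydrolase that clears S-adenosylhomocysteine (mm9 chr2:154885048-154900233), did not pass. It held 24.0, 25.9, 25.2 and 24.8 FPKM in the controls and 26.3, 23.0, 24.3 and 24.7 FPKM with Fto siRNA. The Fto siRNA libraries reached both above and below the controls, and the log2 fold change was -0.02 with an interval of -0.12 to 0.08 (adjusted p = 0.77 by limma).

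The level of Amd1 could not be read from its own entry. Amd1 encodes S-adenosylmethionine decarboxylase, which makes the aminopropyl donor of polyamine synthesis. Its entry was listed at 0.000998 to 0.00131 FPKM in 7 libraries and at 3.97 FPKM in control replicate 4, so it lay below the filter and was not tested. The Amd2 entry, at mm9 chr10:40007271-40021992, covers nearly all of the Amd1 locus, chr10:40007264-40021994, and held 24.4 to 30.8 FPKM in the 8 libraries, each with a status other than OK. In GENCODE M21 (GRCm38), Amd1 is a gene of 8 exons at chr10:40287458-40302186, and Amd2 has 1 exon about as long as the whole Amd1 transcript at chr10:35708675-35711892. Their coding sequences are identical at 1004 of 1005 bases, and their transcripts at 99.6% of aligned bases. The mm9 Amd2 entry lies at the locus of Amd1, not at that of the 1-exon gene. With 2 entries on 1 locus and transcripts this alike, fragments of the pair cannot be told apart here. Their sum, a measure chosen after seeing the data, is the value to read. It rests mostly on the Amd2 entry, whose status was not OK in any library.

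Summed, Amd1 and Amd2 held 26.0, 28.0, 28.3 and 28.4 FPKM in the controls and 28.4, 30.8, 29.0 and 30.7 FPKM with Fto siRNA. The groups met, with the highest control and the lowest Fto siRNA library level to 3 digits. The log2 fold change of the sum was 0.10 (SE 0.0424, adjusted p = 0.125 by limma). In control replicate 4 the signal was split between the entries, but the sum, 28.4 FPKM, lay beside that of control replicates 2 and 3. The plot of the overlapping entries shows this split.

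**Figure D3:**
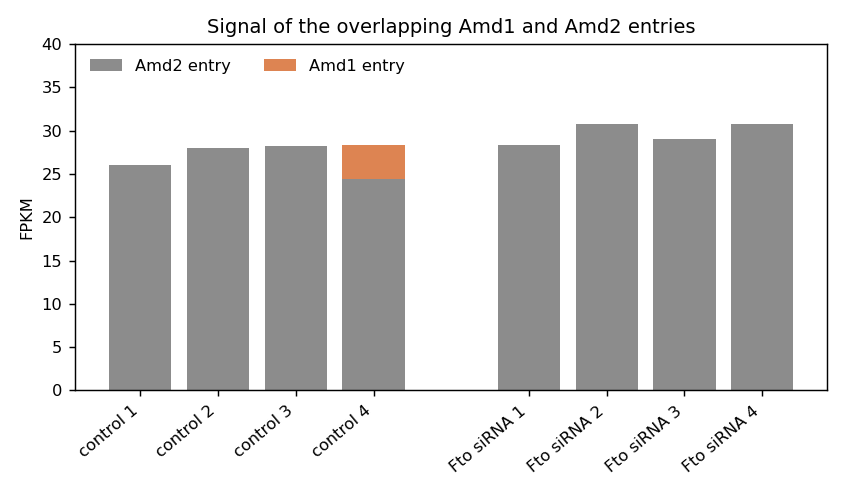
Stacked FPKM of the Amd2 entry (grey) and the Amd1 entry (orange) in each of 8 libraries. The Amd1 entry is visible in control replicate 4 (3.97 FPKM) and is at or below 0.00131 FPKM in the other libraries.

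The aminopropyl transferases did not pass the test. Srm, spermidine synthase (mm9 chr4:147965622-147968728), held 53.6, 50.2, 59.6 and 51.8 FPKM in the controls and 61.2, 54.0, 57.5 and 62.7 FPKM with Fto siRNA. Control replicate 3 lay above Fto siRNA replicates 2 and 3, and the log2 fold change was 0.13 (SE 0.0610, adjusted p = 0.173 by limma). Without control replicate 3, it passed at 0.18 (adjusted p = 0.0365 by limma). This was the 1 of 18 alternatives in which Srm passed, and its limma adjusted p reached 0.362 in the others. Sms, spermine synthase (mm9 chrX:153881886-153929978), held 13.0, 12.6, 14.8 and 12.6 FPKM in the controls and 12.6, 12.0, 13.0 and 13.0 FPKM with Fto siRNA, a log2 fold change of -0.06 with an interval of -0.18 to 0.06 (adjusted p = 0.481 by limma). The ratio of Srm to Sms within a library was 4.12, 3.99, 4.04 and 4.11 in the controls and 4.86, 4.48, 4.43 and 4.84 with Fto siRNA. The ratio was thus higher in each Fto siRNA library, and control replicate 3, high for each gene, lay among the other controls in it. This ratio was not tested, and how often the ratios of other gene pairs separate the groups was not counted.

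Of 44 further genes of these pathways, 43 had a row and 33 were tested, of which 5 were called lower and 1 higher. These shares, 15.2% and 3.03%, stand beside 12.3% and 6.97% of all tested genes, and the median log2 fold change of the 33 was 0.00. They are shown with the members in the plot of fold changes.

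Sat1 and Slc7a5 had the largest called differences among them. Sat1, the acetyltransferase that starts polyamine breakdown and export, held 140, 137, 148 and 144 FPKM in the controls and 114, 105, 111 and 123 FPKM with Fto siRNA. All 4 Fto siRNA libraries were below all controls, and the log2 fold change was -0.33 (SE 0.0492, adjusted p = 0.00159 by limma). Of 7 genes of polyamine breakdown and transport Sat1 was the 1 called (14.3%, beside 19.3% of all tested genes). Paox, Smox and Slc3a2 had log2 fold changes of -0.16, 0.08 and 0.10 (limma adjusted p = 0.107, 0.384 and 0.2). Slc7a5, an importer of methionine and other large neutral amino acids, rose from 27.2, 21.9, 26.1 and 28.8 FPKM to 41.2, 32.8, 31.3 and 39.0 FPKM. The groups did not overlap, and the log2 fold change was 0.46 (SE 0.1004, adjusted p = 0.0105 by limma). Slc3a2, which encodes its heavy chain, did not pass.

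The control of polyamine synthesis showed 0 calls in either direction by limma among 5 tested genes. Over all tested genes 19.3% were called in either direction, and nothing is read from a count this small. Odc1, Azin1 and Amd2 had an unadjusted p under 0.05, at ranks 2502, 3270 and 2459 by p among the 11398 tested genes. Nothing is read from that threshold. Odc1, the ornithine decarboxylase that makes putrescine, held 29.96, 28.1, 30.1 and 30.7 FPKM in the controls and 30.1, 23.9, 24.3 and 25.6 FPKM with Fto siRNA. Fto siRNA replicate 1 lay among the controls and the other 3 lay below them. The log2 fold change was -0.20 (SE 0.0664, adjusted p = 0.0642 by limma), and without Fto siRNA replicate 1 it was -0.27 (adjusted p = 0.00478 by limma). That was the 1 of 18 alternatives in which Odc1 passed, and its limma adjusted p reached 0.238 in the others. Azin1, the antizyme inhibitor, differed by 0.10 on the log2 scale (adjusted p = 0.117 by limma), and Oaz1, the antizyme whose locus overlaps Gm9786 and Mir1982, by 0.18 (0.266). Amd2 passed in 3 of 17 alternatives, with the limit on its entry given above. These were without control replicate 3 (adjusted p = 0.0338 by limma) and with the other scalings (0.0322 and 0.0391). In the others its limma adjusted p reached 0.147.

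In the methionine cycle limma called 3 of 7 tested genes lower and 0 higher, and 2 of the 3 are described. Over all tested genes 12.3% were called lower and 6.97% higher. The log2 fold change was negative for 4 of the 7 and positive for 3, with a median of -0.0005. The lists were chosen with earlier results of these data known, so nothing is read from this share. Ahcyl1 and Ahcyl2, relatives of Ahcy that are known as regulators rather than hydrolases, fell from 75.4 ± 1.29 to 67.7 ± 2.39 FPKM and from 11.2 ± 0.243 to 9.67 ± 0.617 FPKM (SD, n = 4). Their log2 fold changes were -0.16 and -0.20 (limma adjusted p = 0.0108 and 0.0157), and the groups did not overlap for either. Without control replicates 3 and 4 together, Ahcyl2 was not called (adjusted p = 0.0727 by limma). Nnmt, which spends S-adenosylmethionine on methylating nicotinamide, did not pass, at 30.05 ± 1.77 and 32.0 ± 3.30 FPKM (adjusted p = 0.441 by limma). Mat1a, Bhmt, Bhmt2, Gnmt and Cbs lay below the filter, and Bhmt and Bhmt2 were listed at 0 in all 8 libraries.

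Among 5 tested salvage partners and 4 tested hypusine genes limma called 0 in either direction. With 19.3% of all tested genes called, nothing is read from counts this small. Adk and Dhps had an unadjusted p under 0.05, at ranks 2336 and 2567 by p among the 11398 tested genes. Nothing is read from that threshold. Mri1, the isomerase between Mtap and Apip, held 5.25 ± 0.356 and 5.40 ± 0.376 FPKM (SD, n = 4), 0.04 on the log2 scale (adjusted p = 0.732 by limma). Aprt, which recycles the adenine that Mtap releases, differed by -0.02 on the log2 scale (adjusted p = 0.864 by limma). Adk, which recycles adenosine, differed by -0.11 on the log2 scale (adjusted p = 0.0567 by limma). Adk passed in 1 of 18 alternatives, without Fto siRNA replicate 2 (adjusted p = 0.0428 by limma), and reached 0.139 in the others. Eif5a, the translation factor that carries hypusine made from spermidine, held 281 ± 11.7 and 294 ± 13.9 FPKM, 0.06 on the log2 scale (adjusted p = 0.362 by limma). Dhps, which starts hypusine synthesis and overlaps Wdr83, differed by -0.14 on the log2 scale (adjusted p = 0.0675 by limma). It passed in 1 of 18 alternatives, without Fto siRNA replicate 3 (adjusted p = 0.0275 by limma), and reached 0.202 in the others.

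**Figure D4:**
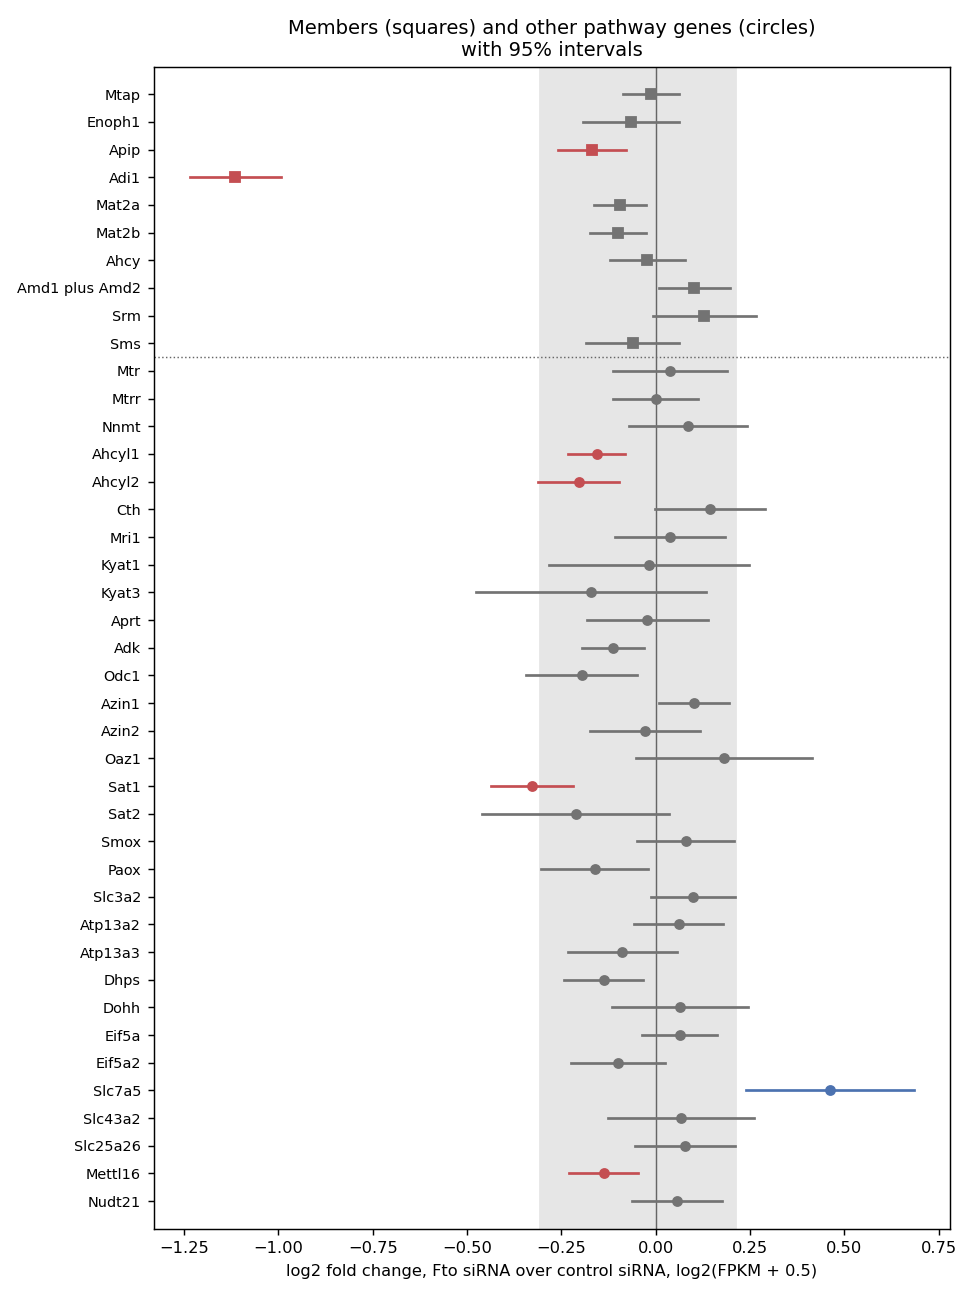
Log2 fold change of Fto siRNA over control siRNA on the scale of log2(FPKM + 0.5), with 95% intervals, for members (squares, above the dotted line) and other tested pathway genes (circles; Amd2 is in the sum with Amd1, and 1 gene is not shown), with red for genes called lower and blue for genes called higher. The grey band spans the 5th to the 95th percentile of all tested genes, -0.31 to 0.21, and Adi1 at -1.11 lies far outside it while the points of the other members lie within.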

How the data were processed

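Total RNA of 8 libraries was sequenced, 4 with control siRNA and 4 with Fto siRNA. The submitters' processing notes name TopHat2 2.0.11, Cufflinks 2.2.1 and the mm9 build. The authors deposited FPKM with intervals and a status for each gene and library, per the file headers. Whether the libraries keep strand is not stated, and fragments from genes that overlap can then not be assigned with certainty. FPKM are not counts and fragments are shared among similar genes by the Cufflinks model, so no count test was run.

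The contrast of Fto siRNA with control siRNA was fitted with limma 3.58.1 (R 4.3.3) on log2(FPKM + 0.5) for 11398 genes with a mean of at least 1 FPKM, with a trend in the prior variance and Benjamini-Hochberg adjustment over all of them, two-sided, at 0.05. The fold change on this scale understates that of low genes. The fit was also run on simulated normal values with changes larger than most of those described here, so that run does not bear on the small differences. The members and lists were chosen with earlier results of these data known. Named genes were Fto, the members, 11 fixed pathway genes, up to 3 genes per list with the lowest p, and the 5 genes closest to Adi1. Oaz2 had no row, and 1 pathway gene that enters the counts is not reported here. Loci are mm9, counted from 1 after adding 1 to the deposited start, since end minus start equalled the gene length for 8902 of 20982 symbols matched to RefSeq and end minus start plus 1 for 549. Sequences came from GENCODE M21 transcripts (GRCm38), using for each gene the longest annotated 3′ UTR of at least 50 bases. Python 3.11.15 and Biopython 1.88 were used. Alternatives covered the pseudocount, the filter, scaling, variance prior, status, a replicate block and leaving out libraries.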

Additional observations from a re-analysis of the deposited data

Results flagged for a closer look

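In 80 groups of 4 libraries, 3 held a library whose gap to the nearest of the others passed Dixon's 95% critical value for 4 samples, where chance flags about 1 in 20 groups. The Amd1 entry stood at 3.97 FPKM in control replicate 4 against 0.000998 to 0.00127 FPKM in the other controls. The sum of Amd1 and Amd2 was 26.0 FPKM in control replicate 1 against 28.0 to 28.4 FPKM in the other controls. Eif5a2, a paralog of Eif5a, was 10.3 FPKM in control replicate 2 against 10.9 to 10.98 FPKM in the other controls.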

How the results depend on the processing

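Adi1, Sat1, Slc7a5 and Ahcyl1 kept their direction and their call in the 18 alternatives run for each, with Adi1 between -1.15 and -1.08 on the log2 scale. Leaving out single libraries gave 550 to 941 higher and 992 to 1433 lower calls over all tested genes, 0 to 1 higher and 2 to 3 lower members, and 1 to 2 higher and 3 to 6 lower among the other pathway genes. The member called higher there was Srm, without control replicate 3. Leaving out control replicates 3 and 4 together, chosen after seeing the data because of the values given for these libraries above, gave 901 lower calls over all genes, 1 lower member (Adi1) and 3 lower pathway genes. Median-ratio scaling and quantile normalization each gave 2 higher pathway genes (Slc7a5 and Amd2, the latter with the limit on its entry given above). The sum of Amd1 and Amd2 was not fitted with these scalings. Both scalings moved the split of calls from 794 higher and 1401 lower to 1086 and 1218 and to 1087 and 1207. Higher genes thus made up 47.1% and 47.4% of calls against 36.2%. The same scalings moved the median of all tested genes by 0.02 on the log2 scale. Same-numbered libraries correlated at -0.19 to 0.0736 in their deviations from the group means, and no library correlated best with its own number, so the numbers were not taken to pair them. With the replicate number as a block, 628 genes were called higher and 1133 lower, 2 members lower and 3 pathway genes lower, without Mettl16. Among the tested members the upper interval bounds lay furthest above the value for Adi1, Apip and Enoph1, by up to 10.3%. These intervals are given per library and do not measure the scatter between libraries.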
